A study of Mus musculus with 4 samples.

Results

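Fos, Fosb, Jun, Junb, Jund, Egr1, Ier2, Ier3, Atf3 and Dusp1, 10 genes of the immediate early class, were followed in single bone marrow haematopoietic stem cells (HSC) of the mouse. They were taken by name, and 10 of 10 were found among the 24409 gene symbols of the files. The cells came from Mat KO mice (2 libraries) and from wild-type (WT) mice (2 libraries). What the Mat KO animals lack, at which locus, is not stated in the labels, nor how many animals, of what age, stood behind a library. They give no treatment, strain or further allele for either genotype. Sorted cells of both genotypes had been held on ice until they were lysed, and each cell was picked by mouth pipette. A barcode counted as a cell where it showed 1000 genes or more. This gave 188 cells: 44 in Mat KO 1, 48 in Mat KO 2, 48 in WT 1 and 48 in WT 2, where the digit is the replicate.

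Immediate early genes are transcribed within minutes of a stimulus without new protein synthesis, chiefly through mitogen-activated protein (MAP) kinases acting on factors already present at their promoters. Fos and Jun proteins pair through leucine zippers to form AP-1, which binds DNA and drives a second wave of genes, while products such as Dusp1 switch the kinases off again. Tissue dissociation and cell sorting are known to induce these genes, and several of them, Egr1 among them, are also transcribed in resting HSC in the animal. All 4 libraries held sorted cells, so induction during handling and activity in the animal cannot be told apart here. The sample labels used here are genotype and replicate, so whether the libraries shared a sort session is not known.

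In GRCm38 (mm10), Fos occupies chr12:85473890-85477274, Fosb chr7:19302696-19310118 and Jun chr4:95049036-95052222. Junb (chr8:84976909-84978748), Jund (chr8:70697739-70700616) and Ier2 (chr8:84661331-84662852) share chromosome 8, and Ier3 (chr17:35821713-35822911) and Dusp1 (chr17:26505591-26508472) share chromosome 17. Atf3 lies at chr1:191170296-191183333. Jun, Junb, Jund and Ier2 are single-exon genes in the GENCODE annotation, and the other 6 are spliced. All 10 are protein-coding.

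The sequences upstream of 4 members are shown because these genes carry the results below. Fos and Jun had the highest pair correlation across cells as a mean of the 4 libraries. Junb kept nearly the same level in every library, and Dusp1 varied most between libraries in its share of cells. Each run reads 5′ to 3′ on the strand of the gene and ends just before the RefSeq start, or, for Dusp1, before the first base annotated as exon. Capitals mark TGACG, the core of the cyclic AMP response element bound by CREB and ATF proteins, or TGACNTCA, the form bound by Jun and ATF dimers. The builds and strands are GRCm38.p6 chr12:85473690-85473889 (plus) for Fos, chr4:95052223-95052422 (minus) for Jun, chr8:84978749-84978948 (minus) for Junb and chr17:26508520-26508672 (minus) for Dusp1.
Fos: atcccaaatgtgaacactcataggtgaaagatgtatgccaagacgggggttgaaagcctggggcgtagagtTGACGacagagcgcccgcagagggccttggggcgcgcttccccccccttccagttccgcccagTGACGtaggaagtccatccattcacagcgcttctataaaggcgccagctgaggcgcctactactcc
Jun: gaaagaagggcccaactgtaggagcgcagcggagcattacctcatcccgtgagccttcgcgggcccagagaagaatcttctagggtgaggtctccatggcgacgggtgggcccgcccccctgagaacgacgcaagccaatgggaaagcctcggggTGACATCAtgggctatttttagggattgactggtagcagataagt
Junb: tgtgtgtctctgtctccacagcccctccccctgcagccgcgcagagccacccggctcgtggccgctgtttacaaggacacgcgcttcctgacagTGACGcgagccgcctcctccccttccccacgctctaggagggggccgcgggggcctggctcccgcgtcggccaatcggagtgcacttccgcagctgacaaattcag
Dusp1: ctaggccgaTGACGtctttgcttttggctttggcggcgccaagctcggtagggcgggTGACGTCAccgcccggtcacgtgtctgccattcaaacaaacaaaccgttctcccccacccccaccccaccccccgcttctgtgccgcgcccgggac

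In the Fos promoter TGACG stood at bases -129 to -125 and -66 to -62 from the start, and TATAAA, the TATA box, at -33 to -28. The Jun promoter had TGACNTCA at -45 to -38. The Dusp1 promoter held the full palindrome TGACGTCA at -143 to -136, which contains TGACG on both strands and is also a TGACNTCA match, and a further TGACG at -191 to -187. The Junb promoter had 1 TGACG, at -106 to -102. The RefSeq promoter table held 8 members. With both strands of the 250 bases before the start searched, TGACG occurred in 5 of these 8 (Fos, Fosb, Junb, Atf3 and Dusp1) and in 17.8% of 32851 promoters. TGACNTCA occurred in 2 of 8 and in 7.49% of promoters, and TGACGTCA in 1 of 8 and in 1.55%. TGANTCA, the AP-1 element itself, was in 0 of 8 and in 6.75% of promoters. A perfect CArG box, the letters bound by serum response factor, was in 0 of 8 and in 1.47%. Bases beyond these 250 were not searched, so 0 of 8 does not mean that these genes lack such sites. Egr1 and Ier2 were not in the promoter table. TATAAA was found in 1 of 8 and in 12.4% of promoters.

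The libraries differed in depth and in the cells they held. The kept cells gave 1900319 and 1768647 UMIs (unique molecular identifiers) in the Mat KO libraries, against 3183279 and 3253608 in the WT libraries. Spike-in species seen in few wells gave 5.18 to 7.37 UMIs per positive well, so UMIs over-counted molecules. All 35 genes of a long-term HSC list passed the filter on low counts. Their summed level was 4226 and 4753 CPM (UMIs scaled to a common library total) in the Mat KO libraries, against 5556 and 4603 CPM in WT. Egr1, a member, is on this list and gave 615 and 399 CPM of the Mat KO sums, against 785 and 591 CPM in WT. Cells of other lineages were also present. By limits on the share of UMIs in marker lists, set after the data were seen, 10, 3, 2 and 3 cells of Mat KO 1, Mat KO 2, WT 1 and WT 2 were granulocyte or monocyte marker-high. Likewise 7, 4, 5 and 3 were B-lymphoid marker-high, 1 cell of Mat KO 1 was T or NK marker-high, and 3 cells of WT 2 were erythroid marker-high. The granulocyte and monocyte list summed to 34114 and 6026 CPM over the Mat KO libraries, against 7015 and 3579 CPM over the WT libraries. Of its 17 tested genes 3 were called higher in Mat KO, and of the T and NK list 1 of 5. Over all tested genes 0.0750% were called higher. The remaining 26, 41, 41 and 39 cells are called lineage-low. RNA from other wells reached the cells. Of cells with more Xist than Y-linked UMIs, 8 of 18, 8 of 23, 8 of 21 and 12 of 27 in the same order still held a Y-linked UMI, at 2.2 to 5.8% of the level in cells with Y-linked UMIs and no Xist. All 4 libraries shared 44 plate barcode numbers, and across shared barcodes the summed level of the 10 genes correlated at a Spearman rho of -0.15 to 0.24 between libraries.

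The 10 genes were abundant. Together they made up 8962 and 6984 CPM in the Mat KO libraries, against 11281 and 8185 CPM in the WT libraries, or 0.896% and 0.698% of UMIs in Mat KO, against 1.13% and 0.818% in WT. A UMI tags 1 cDNA at its 3′ end, whatever the length of the RNA, so levels of different genes are set side by side as CPM. Fos, the AP-1 subunit that cannot pair with itself and needs a Jun partner, ranked 30th and 76th among all genes by UMIs in Mat KO, and 12th and 40th in WT. Averaged over the 4 libraries, Fos stood at 2900 ± 1110 CPM, Fosb at 1615 ± 327 CPM and Jun at 1474 ± 417 CPM (SD, n = 4). Fos was the highest member in 3 of 4 libraries and Fosb in Mat KO 2, and the gap between Fosb and Jun was within the SD of either. The next 5, Egr1, Jund, Ier2, Dusp1 and Junb, averaged 450 to 598 CPM and changed places between libraries, so their order does not hold beyond their spread. Their highest single value, 785 CPM for Egr1 in WT 1, stayed below the lowest of the first 3, 885 CPM for Jun in Mat KO 2. Atf3 (150 ± 70.1 CPM) and Ier3 (88.8 ± 19.7 CPM; SD, n = 4) were lowest on average and overlapped each other.

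**Figure D1:**
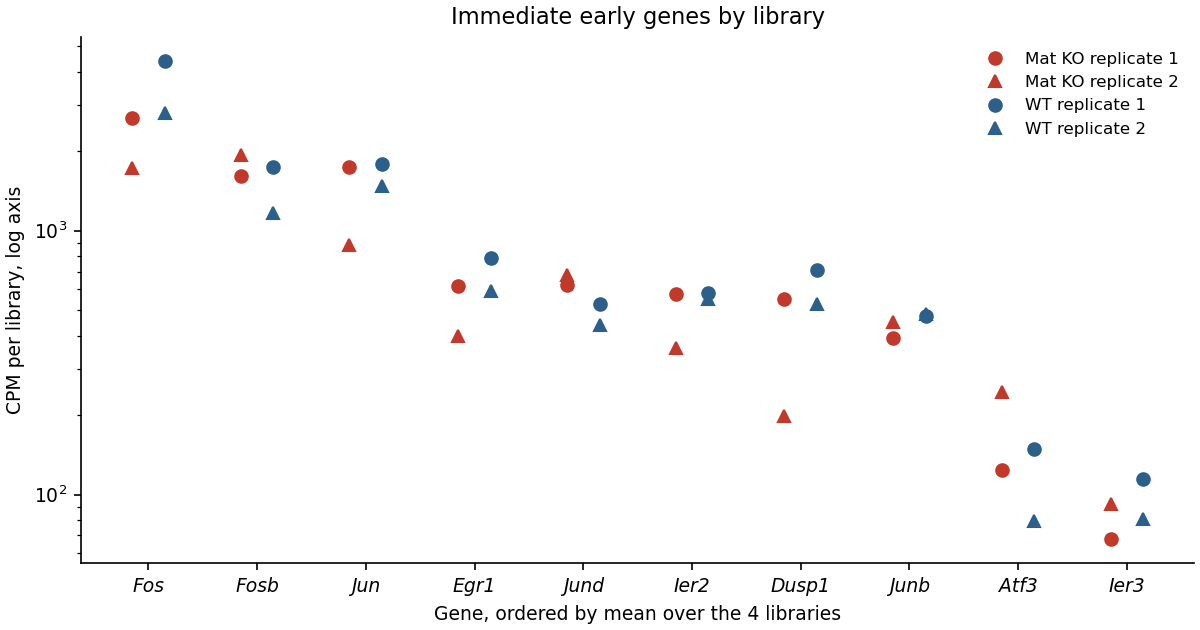
Level of each gene in CPM (log axis) in the 4 libraries, Mat KO libraries in red left of the WT libraries in blue, replicate 1 as circles and replicate 2 as triangles. Fos, Fosb and Jun lie at 885 to 4406 CPM, above the other 7 genes, and the genotypes separate for Fos and Junb (Mat KO below WT) and for Jund (Mat KO above WT).

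None of the 10 genes passed the test between genotypes. In edgeR's quasi-likelihood test on UMIs summed per library, with Benjamini-Hochberg adjustment over 10662 genes, 0 of 10 had an adjusted p under 0.05. Among all genes 0.0750% were called higher and 0% lower in Mat KO, so a list of 10 with no call is what the background gives. One member, Fos, had an unadjusted p under 0.05, as did 833 of all genes. DESeq2 also called 0 of 10, with 2 members at an unadjusted p under 0.05. In Mat KO 7 members were lower and 3 higher, with a median log2 fold change of -0.25 against -0.01 over all genes. Both Mat KO libraries lay below both WT libraries for 2 of 10 (Fos and Junb), where 21.3% of all genes did so, and above them for 1 of 10 (Jund), where 17.8% did. In sums over cells, a different mix of cells and a different level per cell cannot be told apart.

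Among the Fos family, Fos had 2668 and 1732 CPM in the Mat KO libraries, against 4406 and 2793 CPM in WT. The groups did not overlap, but Mat KO 1 and WT 2 lay close together. Its log2 fold change was -0.68 ± 0.24 (SE; adjusted p = 0.537, edgeR). Without Mat KO replicate 1 it was -1.02 with an adjusted p of 0.00163, and with no filter on low genes -0.70 with an adjusted p of 0.0201. It shrank to -0.42 without Mat KO replicate 2 (adjusted p = 0.310) and to -0.33 without WT replicate 1 (adjusted p = 0.985), and was -0.98 without WT replicate 2 (adjusted p = 0.338). Fosb, which encodes a second Fos-type subunit, had 1604 and 1941 CPM in the Mat KO libraries, against 1745 and 1170 CPM in WT, with overlapping groups (log2 fold change 0.32 ± 0.22, adjusted p = 0.779, edgeR). The value for Fosb was 0.62 without WT replicate 1, 0.05 without WT replicate 2 and 0.15 without Mat KO replicate 2. Set against Fos within a library, Fosb gave 0.601 and 1.12 UMIs per Fos UMI in the Mat KO libraries, against 0.396 and 0.419 in WT. Both Mat KO ratios were above both WT ratios. This ratio was chosen after the values were seen and carries no test.

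The Jun family supplies the partners of Fos. Jun itself, which also binds DNA as a pair of 2 Jun proteins, had 1746 and 885 CPM in the Mat KO libraries, against 1790 and 1473 CPM in WT. Mat KO 1 was level with WT 1 and Mat KO 2 was the low library (log2 fold change -0.28 ± 0.27, adjusted p = 0.857, edgeR). Without Mat KO replicate 1 the value for Jun was -0.84 with an adjusted p of 0.0133, and without Mat KO replicate 2 it was 0.11 with an adjusted p of 0.901. Junb, a weaker activator that can counter Jun, varied least of all members. It had 390 and 451 CPM in the Mat KO libraries, against 475 and 482 CPM in WT, with a log2 fold change of -0.15 ± 0.24 (adjusted p = 0.929, edgeR). The groups for Junb did not overlap, but cells thinned to equal depth turned the value to 0.17. Jund, the member of the family that is made without a stimulus in most cells, had 624 and 681 CPM in the Mat KO libraries, against 526.5 and 439 CPM in WT. Its groups did not overlap, and its log2 fold change was 0.47 ± 0.23 (adjusted p = 0.684, edgeR).

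Egr1 encodes a zinc-finger factor known to hold HSC in the marrow and out of cycle. It had 615 and 399 CPM in the Mat KO libraries, against 785 and 591 CPM in WT, and Mat KO 1 lay between the WT libraries (log2 fold change -0.41 ± 0.27, adjusted p = 0.757, edgeR). Leaving out 1 library gave Egr1 values of -0.75 (without Mat KO 1) to -0.16 (without Mat KO 2). Atf3, a stress-induced factor of the ATF family that pairs with Jun proteins, had 124 and 245 CPM in the Mat KO libraries, against 149 and 79.6 CPM in WT. The high library was Mat KO 2, in which 1 granulocyte or monocyte marker-high cell held 39.4% of all Atf3 UMIs. The log2 fold change of Atf3 was 0.73 ± 0.41 (adjusted p = 0.720, edgeR), and it was 0.13 without Mat KO replicate 2, 0.34 without WT replicate 2, 1.14 without Mat KO replicate 1 and 1.24 without WT replicate 1. Ier2, a small nuclear protein induced by growth factors, had 574 and 358 CPM in the Mat KO libraries, against 579 and 549 CPM in WT, so 3 libraries were alike and Mat KO 2 was low (log2 fold change -0.25 ± 0.26, adjusted p = 0.877, edgeR). Ier3, an early protein that acts on cell survival, had 67.9 and 92.2 CPM in the Mat KO libraries, against 114 and 80.8 CPM in WT, with overlapping groups (log2 fold change -0.25 ± 0.38, adjusted p = 0.926, edgeR).

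Dusp1 encodes the nuclear phosphatase that removes phosphate from p38, JNK and ERK and so ends the signal that induced it. The Mat KO libraries lay far apart. Dusp1 had 550 and 199 CPM in the Mat KO libraries, against 711 and 526 CPM in WT, and Mat KO 1 lay between the WT libraries. Its log2 fold change was -0.70 ± 0.39 (adjusted p = 0.716, edgeR), and without Mat KO replicate 1 it was -1.60 with an adjusted p of 0.00383. Without Mat KO replicate 2 it was -0.16 (adjusted p = 0.902), so its size rests on that library. The leading cell of each Mat KO library held 38.5% and 33.5% of its Dusp1 UMIs, against 9.98% and 19.3% in the WT libraries.

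The share of cells with a UMI was compared at equal depth. For this, each cell was thinned to 8800 UMIs, which kept 39 and 41 Mat KO cells and 46 and 44 WT cells. Dusp1 was then found in 22 of 39 and 13 of 41 cells from Mat KO libraries, against 39 of 46 and 33 of 44 from WT libraries. The exact binomial 95% intervals, which cover counting error only, were 39.6 to 72.2% and 18.1 to 48.1% in the Mat KO libraries, against 71.1 to 93.7% and 59.7 to 86.8% in WT. Without thinning the Dusp1 shares were 79.5% and 66.7% in the Mat KO libraries, against 97.9% and 93.8% in WT. Egr1 was found in 69.2% and 80.5% of thinned Mat KO cells, against 89.1% and 88.6% of thinned WT cells. Fos was found in 92.3% and 92.7% of cells from Mat KO, against 95.7% and 95.5% of WT cells. For these 3 genes both Mat KO libraries lay below both WT libraries, and for the other 7 the groups overlapped. Of all genes tested, 21.2% lay below in both Mat KO libraries by this share and 15.3% above, so 3 of 10 below and 0 of 10 above are close to the background. With 2 libraries against 2, the smallest p that the two-sided exact permutation test can give is 0.333, which is the p of all 3.

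In lineage-low cells at the same depth, both Mat KO libraries lay below both WT libraries for Dusp1 and Egr1 (2 of 10 members, against 21.0% of all genes) and above them for Jund (1 of 10, against 11.8%), again close to the background. Dusp1 was found in 16 of 24 and 11 of 35 lineage-low Mat KO cells, against 36 of 39 and 26 of 35 lineage-low WT cells (66.7% and 31.4% against 92.3% and 74.3%). Egr1 was found in 83.3% and 82.9% of lineage-low Mat KO cells, against 94.9% and 91.4% of lineage-low WT cells. Fos was found in 24 of 24 and 33 of 35 lineage-low Mat KO cells, against 39 of 39 and 35 of 35 lineage-low WT cells. Jund was found in 100% and 97.1% of lineage-low Mat KO cells, against 94.9% and 94.3% of lineage-low WT cells. The permutation p of Dusp1, of Egr1 and of Jund was again the smallest possible, 0.333. Leakage between wells can give a UMI to a cell that does not transcribe the gene, and its part in these shares was not tested. Atf3 and Ier3 averaged 0.87 to 1.44 UMIs per thinned cell over the libraries of a genotype, so no change in the share of cells is read from them.

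All members except Atf3 were higher in lineage-low cells than in cells of other lineages in 4 of 4 libraries. The share of all genes with this pattern was not taken, so the count has no background and is not read as particular to the members. The summed level in lineage-low cells was 15288 and 8722 CPM in the Mat KO libraries and 13256 and 9866 CPM in WT. In the other cells it was 2625 and 2674 CPM in the Mat KO libraries and 1597 and 3714 CPM in WT. The lineage-low level was therefore 5.82, 3.26, 8.30 and 2.66 times that of the other cells in Mat KO 1, Mat KO 2, WT 1 and WT 2, with no test since cells of 1 library are not replicates. Egr1 was 4.72 to 23.0 times as high in lineage-low cells, and Fos 3.66 to 13.4 times. Ier3, a gene of few UMIs, was 7.24 to 24.6 times as high. Jund was closer to even, at 1.83 to 3.57 times. These levels and ratios pool the UMIs of all cells of a class, so deep cells weigh most. Medians per cell of the summed level were 11897 and 6856 CPM in lineage-low cells of Mat KO, against 11208 and 9024 CPM in WT. In the other cells these medians were 3613 and 2230 CPM in Mat KO, against 1622 and 4000 CPM in WT. Atf3 was higher in lineage-low cells in 3 of 4 libraries and 0.20 times as high in Mat KO 2, the library whose leading Atf3 cell was granulocyte or monocyte marker-high.

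Granulocyte or monocyte marker-high cells had a pooled summed level of 3338 and 4137 CPM in the Mat KO libraries and 4806 and 5404 CPM in WT. They were not uniformly low, as the 10 such cells of Mat KO 1 ran from 486 through a median of 8225 to 27283 CPM. The medians per cell were 4132 CPM in Mat KO 2, 4944 CPM in WT 1 and 5113 CPM in WT 2. B-lymphoid marker-high cells had 1723 and 1801 CPM in the Mat KO libraries and 906 and 5306 CPM in WT, and the WT 2 value rests on 3 cells, of which 1 had 25972 CPM. Egr1 in B-lymphoid marker-high cells stood at 4.4%, 8.1%, 3.1% and 4.4% of its lineage-low level in Mat KO 1, Mat KO 2, WT 1 and WT 2, where Y-linked UMIs leaked at 3.8%, 3.9%, 2.2% and 5.8%. The percentages for Egr1 were thus close to the Y-linked ones in each library but Mat KO 2. Y-linked RNA came from a part of the cells, so it need not leak at the same level as Egr1. The part of leakage in Egr1 in those cells was not tested. Jund stood well above the Y-linked percentages there, at 34.6%, 62.6%, 34.2% and 90.7% of its lineage-low level in the same order.

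Cells within a library differed far more than libraries did. The summed level ran from 486 through a median of 8653 to 40789 CPM per cell in Mat KO 1, and from 1300 through 6312 to 26233 CPM in Mat KO 2. In WT 1 it ran from 393 through 10436 to 29926 CPM, and in WT 2 from 423 through 8495 to 25972 CPM. The lowest cell of each library was of another lineage: a granulocyte or monocyte marker-high cell in Mat KO 1, B-lymphoid marker-high cells in Mat KO 2 and WT 1, and an erythroid marker-high cell in WT 2. Of the 10 lowest cells, 8 and 5 in the Mat KO libraries, against 6 and 5 in the WT libraries, were of other lineages, while of the 10 highest 1 cell of Mat KO 1 and 1 cell of WT 2 were. Both sexes were present in every library, as cells with Xist UMIs or with Y-linked UMIs and no Xist. Of the Xist cells, 12 of 22 and 23 of 38 in Mat KO also held Y-linked UMIs, as did 20 of 33 and 21 of 36 in WT. The Xist group can therefore hold cells of both sexes. The summed level was 7473 and 8188 CPM in Xist cells of the Mat KO libraries, against 11472 and 7898 CPM in those of WT. In cells with Y-linked UMIs and no Xist it was 9917 and 3283 CPM in the Mat KO libraries, against 10870 and 9377 CPM in WT. Mat KO 2 was thus low in those 10 cells, of which 6 were lineage-low. The median per cell was 2471 CPM over the 10 and 4278 CPM over the 6. The lowest lineage-low cells still had 2628 and 1869 CPM in the Mat KO libraries and 3484 and 1101 CPM in WT.

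**Figure D2:**
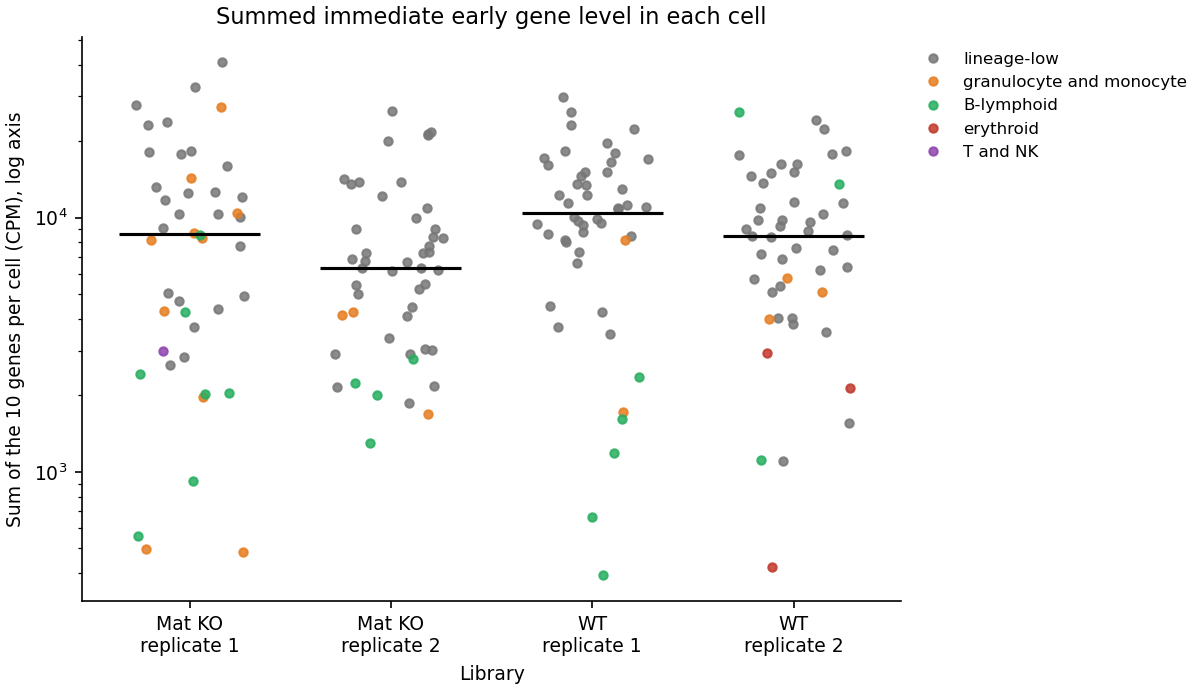
Summed level of the 10 genes in each kept cell in CPM (log axis), by library, with cells coloured by marker class and the library median as a bar. Medians are 8653 and 6312 CPM in the Mat KO libraries and 10436 and 8495 CPM in WT, and the cells below 1000 CPM in each library that has them are of other lineages.

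Leaving out cells of other lineages turned the sign of 5 members between genotypes, of which Egr1 (0.04) and Ier2 (0.01) were then about 0. Cells of other lineages held 49.96% and 28.7% of UMIs in the Mat KO libraries, against 16.9% and 27.3% in WT, and the part of this in the all-cell values was not tested. In lineage-low cells 2 of 10 members were lower in the Mat KO libraries, against 7 of 10 in all kept cells, and the median log2 fold change was 0.12. With the marker limits halved or doubled 4 of 10 were lower, as Egr1 (-0.18 and -0.04) and Ier2 (-0.02 and -0.02) were then below 0. Halving the limits cut the lineage-low cells of Mat KO 1 from 26 to 12. The other libraries kept 38 (Mat KO 2), 33 (WT 1) and 34 (WT 2). Doubling them gave 29 and 41 cells in the Mat KO libraries, against 41 and 42 in WT. The lineage-low values of Mat KO 1 thus rest most on where the limits were set. The lineage-low cells still differed in marker lists, whose part in the members' values was not tested. Granulocyte and monocyte genes had a median log2 fold change of 1.23 there (9 of 12 higher) and neutrophil granule genes 1.45 (7 of 8 higher). S phase genes had -1.25 (18 of 20 lower) and G2/M genes -1.16 (22 of 22 lower), with 0 genes of these 4 lists called. Again 0 of 10 passed (edgeR), with 0.0403% of 9916 genes called, and 2 members had an unadjusted p under 0.05 as did 738 of all genes. Fosb, Jund and Junb were above WT in both Mat KO libraries, 3 of 10 where 15.0% of all genes were, and 0 of 10 were below in both, where 22.7% were.

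Fosb in lineage-low cells had 2774 and 2552 CPM in the Mat KO libraries, against 2071 and 1421 CPM in WT. The groups no longer overlapped, and the log2 fold change was 0.67 with an unadjusted p of 0.000846 (adjusted p = 0.254, edgeR). Jund in lineage-low cells had 974 and 783 CPM in the Mat KO libraries, against 586 and 503 CPM in the WT libraries (log2 fold change 0.74, unadjusted p = 0.00215, adjusted p = 0.350, edgeR). Fos in lineage-low cells had 4777 and 2190 CPM in the Mat KO libraries, against 5225 and 3498 CPM in WT, so its groups overlapped and its log2 fold change was -0.27 (adjusted p = 0.897, edgeR). That value depends on the marker limits, and was -0.63 with the limits halved and -0.36 with them doubled. Jun in lineage-low cells ranged from 2868 CPM in Mat KO 1 to 1126 CPM in Mat KO 2, with both WT libraries between them at 2062 and 1632 CPM. Dusp1 showed the same order, with 997 and 252 CPM in the Mat KO libraries, against 844 and 617 CPM in WT, and its log2 fold change of -0.18 was -0.62 with the limits halved. Junb was nearly level, at 592 and 590 CPM in the Mat KO libraries, against 555 and 572 CPM in WT. Egr1, Ier2, Ier3 and Atf3 had log2 fold changes of 0.04, 0.01, 0.12 and 0.27 in lineage-low cells, and their groups overlapped. The ratio of Fosb to Fos in lineage-low cells was 0.581 and 1.17 in the Mat KO libraries, against 0.396 and 0.406 in WT.

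**Figure D3:**
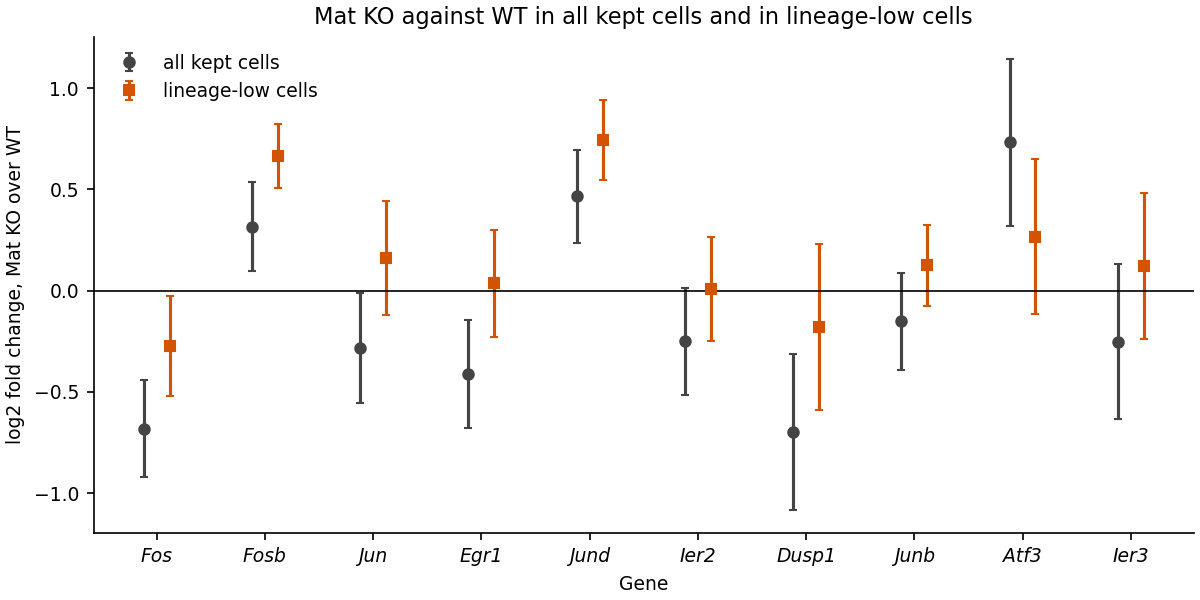
log2 fold change of each gene (Mat KO over WT, points with SE bars) in all kept cells (grey circles) and in lineage-low cells (orange squares). Fos is at -0.68 in all kept cells and at -0.27 in lineage-low cells, Jun, Egr1, Ier2, Junb and Ier3 cross 0, and Fosb (0.67) and Jund (0.74) lie farthest above 0 in lineage-low cells.

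Most cells held most of the members at once. At 8800 UMIs a cell, a mean of 7.36 and 7.39 of the 10 were detected per Mat KO cell, against 7.76 and 7.84 per WT cell. Cells with 9 or 10 members numbered 11 of 39 and 8 of 41 in the Mat KO libraries, against 15 of 46 and 15 of 44 in WT. Cells with 4 or fewer numbered 4 and 0 in the Mat KO libraries, against 2 and 3 in WT. The difference in mean number, -0.426 members per cell, was -0.348 in lineage-low cells. The means there were 8.17 and 7.51 in the Mat KO libraries, against 8.21 and 8.17 in WT. In all thinned cells, the share that differed most was that of Dusp1, at a mean of 44.1% in Mat KO against 79.9% in WT. Egr1 came next, at 74.9% against 88.9%. Fos, Fosb and Jun were slightly lower in Mat KO by mean share, and Ier2, Ier3, Junb, Jund and Atf3 were higher. Atf3 and Ier3 were missing from most cells of every library, with a UMI in 23.9 to 46.3% of thinned cells, and Dusp1 was missing from most cells of Mat KO 2.

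The members varied together from cell to cell. Across thinned cells of a library, the median Spearman correlation over the 45 member pairs was 0.30 and 0.28 in the Mat KO libraries, against 0.31 and 0.20 in WT, while pairs of other genes had medians of 0.003 to 0.013. These are descriptions over cells that share a library and a depth. The other genes, 3074 to 3669 per library, were not matched to the members in level. Few UMIs per cell limit what a correlation can show, so the part of level in this gap was not tested. In lineage-low cells alone the member medians were 0.13 and 0.22 in the Mat KO libraries, against 0.15 and 0.13 in WT. They were lower there in each library, and pairs of other genes were not taken in lineage-low cells. Averaged over the 4 libraries, Fos and Jun, the partners in AP-1, were the closest pair at 0.58 (0.50 to 0.70). They were not the closest pair in any single library. Fos and Egr1 led in Mat KO 1 (0.78) and Fos and Fosb in WT 1 (0.51). Fos and Dusp1 led in Mat KO 2 (0.59) and WT 2 (0.70). In the means over the 4 libraries, the order was close. Fos and Egr1 followed at 0.56, Jun and Egr1 at 0.52, and Fos and Dusp1 at 0.52. Fos was the most like member for Jun, Fosb, Jund, Egr1, Ier2 and Dusp1, and Ier2 was the most like for Junb, at 0.42. Against the mean log level of the other 9 members, Fos had the highest mean correlation, 0.60, with a range of 0.56 to 0.64.

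Atf3 and Ier3 followed the other 8 least. Atf3 had a mean correlation of -0.04 with the rest of the members, from -0.13 in Mat KO 1 to 0.09 in WT 2, and Ier3 had 0.14, from -0.02 in WT 2 to 0.31 in WT 1. The lowest pair was Jun and Atf3 at -0.11, and the highest with either gene was Fosb and Ier3 at 0.24. Both genes had few UMIs per cell, which limits what a correlation can show, and the part of this was not tested.

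**Figure D4:**
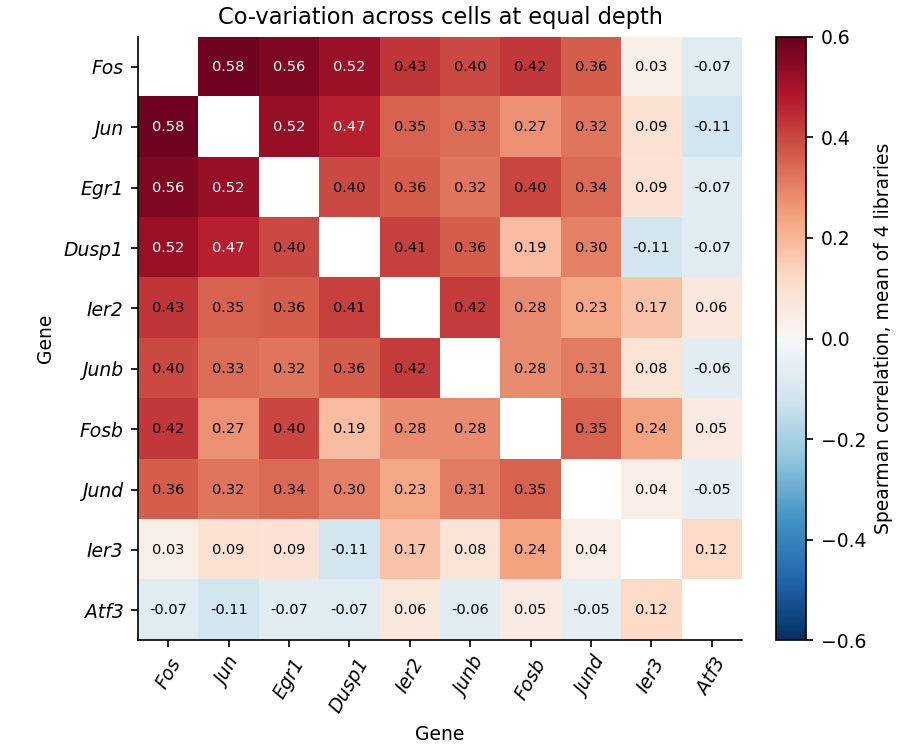
Spearman correlation of each pair of the 10 genes across cells thinned to equal depth, as the mean of the 4 libraries (red positive, blue negative, value printed in each cell). Fos, Jun, Egr1 and Dusp1 form a block at 0.40 to 0.58, and the rows of Ier3 and Atf3 hold lower values, from -0.11 to 0.24.

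Genes outside the list that followed the members most closely were mainly other early response genes. The correlations were taken over thinned cells of all classes. They were not repeated in lineage-low cells, and the part of cell class in them was not tested. Of 2249 genes detected in at least 25% of thinned cells of each library, Zfp36, which encodes an RNA-binding protein that destabilises early transcripts, had the highest mean correlation with the member score, 0.475, from 0.385 in Mat KO 2 to 0.601 in Mat KO 1. Ppp1r15a, a phosphatase subunit of the stress response, followed at 0.454. Next came Nfkbid (0.426), an inhibitor of the NF-κB family, the nuclear receptor Nr4a1 (0.413) and the MAP kinase phosphatase Dusp2 (0.407). The rest of the first 12 were Ccnl1 (0.404), B2m (0.401), Cdk11b (0.377), Btg2 (0.366), Hlf (0.362), Ifitm1 (0.357) and Klf4 (0.346). Of these 12, 7 belong to the early gene lists, which hold 35 of the 2249 genes, or 1.56%. Over all 35 the median of the mean correlations was 0.147, against -0.011 over the 2249. Above 0 in 4 of 4 libraries were 18 of the 35 and 261 of the 2249. Hlf, a transcription factor of HSC, is on the long-term HSC list. At the other end were Psmb1 (-0.392), a proteasome subunit, Atp5j2 (-0.318), a subunit of ATP synthase, Hmgb2 (-0.309), a chromatin protein of cycling cells, and Cd52 (-0.306), a surface glycoprotein of leukocytes.

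**Figure D5:**
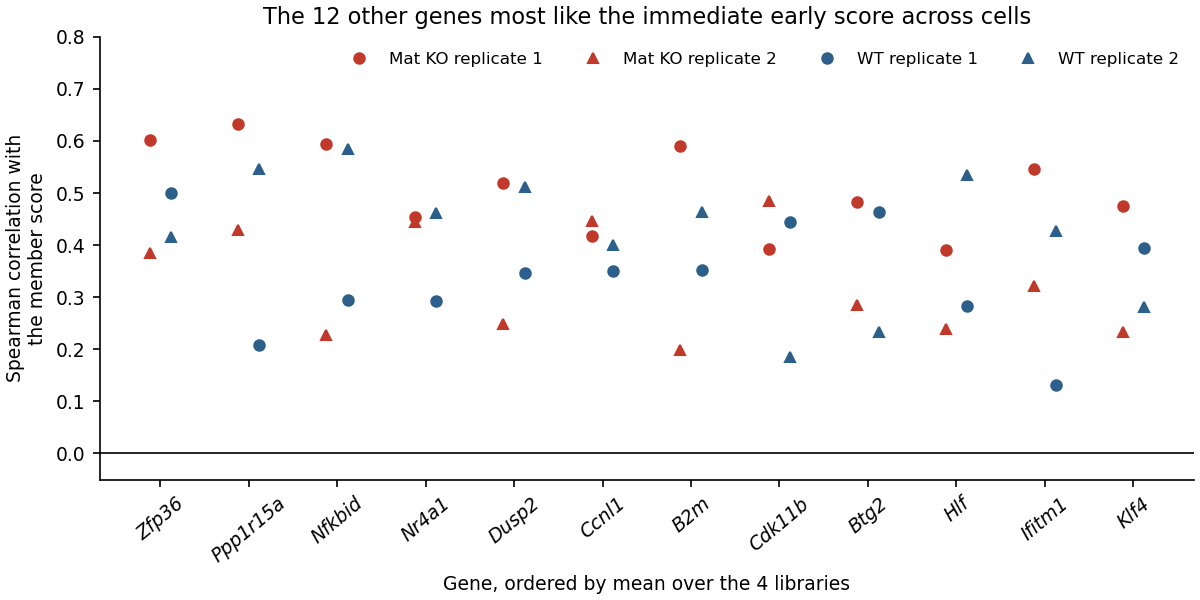
Spearman correlation across thinned cells between each of 12 genes and the mean log level of the 10 members, by library (Mat KO in red left of WT in blue, replicate 1 as circles, replicate 2 as triangles). All 48 values are above 0, from 0.131 for Ifitm1 in WT 1 to 0.632 for Ppp1r15a in Mat KO 1.

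Whole lists were set against the members cell by cell, over thinned cells of all classes. Lineage-low cells were not taken alone here, and the part of cell class in these correlations was not tested. The member score correlated with the summed level of the feedback inhibitors at a mean rho of 0.55 (0.44 to 0.79 over libraries) and with the other immediate early transcription factors at 0.45. With the long-term HSC list, Egr1 left out, it correlated at 0.41 (0.17 to 0.59), and with the megakaryocyte list at 0.30. The MAP kinases and activators, which act by phosphorylation and need no new RNA, had -0.15 (-0.24 to 0.08), the S phase list -0.13 (-0.26 to 0.10) and the G2/M list -0.24 (-0.36 to -0.07). The heat shock list had 0.14, with 0.33 and 0.18 in the Mat KO libraries, against 0.35 and -0.31 in the WT libraries, so its sign differed between the WT libraries. For the marker lists of other cells it was 0.05 (granulocyte and monocyte), 0.09 (neutrophil granule), -0.18 (B-lymphoid), -0.02 (T and NK), 0.27 (erythroid), -0.09 (mast cell and basophil) and 0.004 (stroma). Each of these means joins libraries of opposite sign, such as -0.40 to 0.38 for T and NK and -0.08 to 0.64 for erythroid genes. The score correlated at a mean of -0.16 (-0.36 to 0.17) with a cell's UMIs before thinning and of 0.02 (-0.27 to 0.22) with its spike-in UMIs. The highest cell of each library had 22555 and 19365 UMIs in the Mat KO libraries and 40400 and 24103 UMIs in WT, each below the median cell of its library.

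Between genotypes, no gene of the early lists passed the test in all kept cells (edgeR, adjusted p over all genes), on the background of 0.0750% called higher and 0% called lower given above. Of the other AP-1 and partner genes 0 of 16 were called, 6 lower and 10 higher, with a median log2 fold change of 0.12. The 3 with the largest fold changes at 20 CPM or more were Cebpd (1.80, adjusted p = 0.693), Atf2 (0.72, adjusted p = 0.715) and Atf7 (0.60, adjusted p = 0.862). Of the other immediate early transcription factors 0 of 16 were called, 9 lower and 7 higher (median -0.09). Klf6, a zinc-finger factor, had 729 and 677 CPM in the Mat KO libraries, against 363 and 308 CPM in WT, and its groups did not overlap (log2 fold change 1.10 ± 0.23, adjusted p = 0.176, edgeR). In lineage-low cells Klf6 rose by 1.33 on the log2 scale (adjusted p = 0.0409, edgeR), the 1 gene of the early lists that passed there. Id2, an inhibitor of helix-loop-helix factors, had 169 and 72.9 CPM in the Mat KO libraries, against 25.1 and 19.7 CPM in the WT libraries (log2 fold change 2.46, adjusted p = 0.128), and Nfil3 had a log2 fold change of 1.44 (adjusted p = 0.600). In lineage-low cells Nfil3 had -0.77, Id2 0.99 and Cebpd -1.04, none of which passed.

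Of the feedback inhibitors 0 of 23 were called, 10 lower and 13 higher (median 0.07), with Spry2 at 1.18 (adjusted p = 0.630), Tnfaip3 at 0.77 (adjusted p = 0.719) and Btg1 at 0.70 (adjusted p = 0.719) in log2 fold change. Of the secreted and effector early genes 0 of 17 were called, 7 lower and 10 higher (median 0.16). Thbs1, a secreted matrix protein, had 55.8 and 87.1 CPM in the Mat KO libraries, against 6.60 and 1.84 CPM in the WT libraries (log2 fold change 4.10 ± 0.72, adjusted p = 0.0871, edgeR). The cytokine genes Il1b (-3.16, adjusted p = 0.585) and Cxcl2 (-2.05, adjusted p = 0.730) were high in WT 2 alone, at 183 and 67.0 CPM. Of the MAP kinases and activators 0 of 27 were called, 12 lower and 15 higher (median 0.05), with Elk4 at 1.06 (adjusted p = 0.767), Nras at 0.84 (adjusted p = 0.592) and Map2k7 at 0.70 (adjusted p = 0.825).

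Heat shock genes respond to stress through a factor other than AP-1, and the part of handling in their levels was not tested. Of 15 heat shock genes in the genotype test 0 were called. In Mat KO 13 were lower and 2 higher, and the median log2 fold change was -0.50. In lineage-low cells 11 were lower and 4 higher, with a median of -0.14. Hspa1a had 4.74 and 3.39 CPM in the Mat KO libraries, against 35.8 and 265 CPM in the WT libraries (log2 fold change -5.16 ± 0.89, adjusted p = 0.0815, edgeR). Hspa1b, its near-identical copy, had 1.58 and 10.2 CPM in the Mat KO libraries, against 21.7 and 182 CPM in the WT libraries (log2 fold change -4.08, adjusted p = 0.273). Reads that match both copies could have gone to either, so their separate values are uncertain. Hsph1 had a log2 fold change of -1.02 (adjusted p = 0.705). WT 2, the library highest in Hspa1a, had the third highest summed level of the 10 members, below WT 1 and Mat KO 1.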

How the data were processed

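Single HSC were profiled by a modified STRT-seq method in 4 libraries, 2 per genotype. The deposited files hold raw UMI counts per gene and barcode, with no normalization stated. TopHat2 2.0.12, HTSeq and the mm10 build are named, without roles, per the submitters' processing notes, and the handling of multi-copy reads and of strand is not stated in them.

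Duplicated symbols were summed and 95 spike-in or marker rows were left out. Barcodes showing 1000 genes or more were used, and their counts were summed per library, since cells are not replicates. The sums were tested with edgeR 4.0.16 (R 4.3.3; TMM, filterByExpr, quasi-likelihood test) with Benjamini-Hochberg adjustment over all tested genes. Nothing in the labels says that replicates came from separate animals, so the spread behind each p-value may be technical. For shares of cells and correlations each cell was thinned to 8800 UMIs, which left out 18 cells. No doublet caller was run, as cells were picked singly. Intervals are exact binomial at 95%, count sampling of UMIs alone, and come out too tight where UMIs over-count.

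The members and lists were chosen with earlier results of these data known. Named besides the 10 members are the 3 genes with the largest fold change per early, kinase and heat shock list at a mean of at least 20 CPM, any list gene that passed, and the 12 highest and 4 lowest genes by per-cell likeness. Limits for cells of other lineages were 1% of UMIs in granulocyte and monocyte, 0.15% in B-lymphoid, 0.1% in T and NK and 0.4% in erythroid markers. Lists of mast cell and stroma markers were also kept. Their summed levels were 107 and 107 CPM (mast cell) and 45.8 and 45.2 CPM (stroma) in Mat KO, and 40.8 and 70.1 CPM and 55.6 and 39.3 CPM in WT. The neutrophil granule list gave 32610 and 2390 CPM for Mat KO and 6457 and 3412 CPM for WT. Promoter sequences and gene positions are from RefSeq, GRCm38.p6, in which 10 of 10 members matched a gene and 8 of 10 a promoter. Alternatives were other scaling, DESeq2 1.42.0, other filters, thinned counts, limma 3.58.1 on mean CPM (log2 of CPM plus 1), a replicate block, subsets of cells and leaving out each library.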

Additional observations from a re-analysis of the deposited data

Results flagged for a closer look

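Barcodes left out for having under 1000 detected genes also held UMIs of the 10 genes. In Mat KO 1 they held 62 of 8911 UMIs, in Mat KO 2 5 of 769, in WT 1 16 of 1293 and in WT 2 7 of 1164. They stand out because these barcodes enter no comparison and their counts exceed the 3 that a count of 0 allows. Among barcodes 49 to 96, which held no kept cell in any library, the members had 6 of 721 UMIs in Mat KO 1, and the counts above in the other 3 libraries come from those barcodes alone. The 4 wells among barcodes 1 to 48 left out of Mat KO 1 hold the rest.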

How the results depend on the processing

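The number of members called stayed at 0 in every alternative except no filter on low genes (1, Fos) and leaving out 1 library (0 to 3, the 3 being Fos, Jun and Dusp1 without Mat KO 1). Genes called, 8 in the main test, numbered 149 with no filter, 109 with DESeq2, 109 with the replicate block, 18 to 123 without 1 library, 5 with cells of at least 2000 genes, 4 in lineage-low cells, 4 in thinned cells, 2 in cells with Xist, 2 with limma on mean CPM, 2 with the lineage limits halved, 1 in cells with Y-linked UMIs and 0 without each gene's leading cell (740 at an unadjusted p under 0.05). The replicate block changed no member's call, and same-numbered libraries did not deviate together (r = -0.017 over 10662 genes, only 2 pairs). Members detected per cell, -0.426, became -0.348 in lineage-low cells, -0.747 at 4400 UMIs a cell and -0.633 without thinning, and -0.466 to -0.386 without 1 library. The difference in median pair correlation, 0.038, became -0.110 without thinning and ranged from -0.015 to 0.092 without 1 library. The log2 ratio of summed levels, -0.288, ranged from -0.501 to -0.038 without 1 library, was 0.054 in lineage-low cells and -0.617 in cells with Y-linked UMIs.

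Turned directions, as log2 fold changes, were these. In lineage-low cells Jun had 0.16, Junb 0.13, Egr1 0.036, Ier2 0.008 and Ier3 0.12. With the lineage limits halved, an alternative chosen after seeing the data, Jun had 0.045, Junb 0.25 and Ier3 0.14, and with them doubled 0.067, 0.097 and 0.10. In thinned cells Junb had 0.17, Ier2 0.001 and Ier3 0.22. With limma on mean CPM Junb had 0.042 and Ier3 0.026. Without the leading cells Junb had 0.013. In cells with Xist Ier3 had 0.15, and in cells with Y-linked UMIs Fosb had -0.17 and Atf3 -1.29. Without 1 library Jun ranged from -0.842 to 0.106, Ier2 from -0.617 to 0.032 and Ier3 from -0.515 to 0.008, with the positive ends without Mat KO 2 (Jun, Ier2) and WT 1 (Ier3). The causes were not tested. Depth limits Atf3 and Ier3 most, at about 1 UMI per thinned cell.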
